A study of Mus musculus with 4 samples.

Results

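Cell cycle genes were examined in naive helper T cells, which are resting cells. The group was defined by 35 gene symbols of DNA replication and mitosis, and every probe set that the array annotation maps to 1 of these symbols alone was taken. A probe set is the set of short oligonucleotides on the array that reports 1 transcript. In all, 86 of 45037 probe sets qualified and reported 34 of the 18193 named genes. Ccnb1, which encodes cyclin B1, had no such probe set and was not analysed here. The 34 genes fall into 5 regulators of G1, 11 genes of the passage from G1 into S phase (G1/S genes) and 18 genes of mitosis and its preparation.

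Cells with CD4 and CD62L but no CD44 on their surface were sorted from mice aged 10 to 11 weeks. Their total RNA was hybridised to 4 Affymetrix mouse whole-genome arrays. The 2 arrays labelled knockout came from CD4-cre Fur flox/flox mice, where the CD4 promoter drives Cre, so that the floxed furin gene is targeted in T cells. The 2 arrays labelled wild type came from littermates that carried the same floxed gene without Cre, so both groups share the floxed allele. The gene encodes furin, which processes many secreted and surface proteins by cleaving their precursors. Arrays carry the numbers 1 and 2 within each group, and no label tells whether these are separate animals or pools, so any p-value measures only the spread between these samples. The number of arrays limits the precision of every value.

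Resting T cells sit outside the dividing cycle. In G1, D-type cyclins activate Cdk4 and Cdk6, which release E2F factors from the retinoblastoma family, while the inhibitor p27, encoded by Cdkn1b, restrains cyclin-dependent kinases. E2F factors drive the G1/S genes, such as cyclin E and the Mcm helicase subunits that license replication origins. Genes of G2 and mitosis are switched on later through CHR elements, short promoter sequences bound by the DREAM and MuvB complexes, and through CCAAT boxes bound by NF-Y. In resting cells DREAM represses both sets. In bulk RNA a gene of low signal may be active in few cells or weakly in many, which cannot be told apart.

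Promoter sequences were compared with this division. Promoters of 250 bases before the annotated start were taken from RefSeq (GRCm38.p6) for 28 of the 35 symbols. An E2F site was searched as TTTCCCGC, TTTCGCGC, TTTGCCGC or TTTGGCGC, a CHR as TTTGAA, and a CCAAT box as CCAAT, each on both strands. An E2F site stood in the promoters of 4 of 9 G1/S genes, 1 of 15 mitotic genes (Ccnb1 included) and 0 of 4 G1 regulators, and in 2.16% of 27025 genes with a promoter in the table. A CHR stood in 7 of 15 mitotic genes, 1 of 9 G1/S genes and 0 of 4 G1 regulators, against 18.3% of all genes. CCAAT stood in 13 of 15 mitotic genes, 6 of 9 G1/S genes and 2 of 4 G1 regulators, against 37.5% of all genes, and all 7 mitotic promoters with a CHR also held CCAAT. A match is a run of letters and does not show that a factor binds. A missing match does not show that an element is absent, since other spellings and bases after the start were not searched.

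The following promoters are examples picked because they carry a CHR or an E2F match, with Mki67, Cdk1 and Cdc20 as mitotic genes and Mcm5 and Mcm6 as G1/S genes. Other promoters do not follow this division. Mcm2 has a CHR match and no E2F match, Mcm3 has no E2F match, and Plk1, Aurka and Bub1 have no CHR match. CCAAT stands in both classes. Capitals mark the E2F, CHR and CCAAT matches on either strand, some of which overlap. They lie at chr7:135716380-135716629 (minus strand), chr10:69352913-69353162 (minus), chr4:118437344-118437593 (minus), chr8:75109259-75109508 (plus) and chr1:128359706-128359955 (minus), in this order.
Mki67: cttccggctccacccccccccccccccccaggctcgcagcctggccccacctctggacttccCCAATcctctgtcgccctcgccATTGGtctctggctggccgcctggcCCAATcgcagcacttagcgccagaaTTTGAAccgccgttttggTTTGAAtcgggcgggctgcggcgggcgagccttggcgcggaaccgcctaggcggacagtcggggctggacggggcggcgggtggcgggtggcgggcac
Cdk1: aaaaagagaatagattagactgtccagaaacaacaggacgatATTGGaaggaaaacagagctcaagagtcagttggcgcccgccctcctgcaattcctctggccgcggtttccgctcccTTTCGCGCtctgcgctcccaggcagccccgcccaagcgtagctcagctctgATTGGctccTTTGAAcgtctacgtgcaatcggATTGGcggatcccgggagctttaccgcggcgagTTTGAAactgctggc
Cdc20: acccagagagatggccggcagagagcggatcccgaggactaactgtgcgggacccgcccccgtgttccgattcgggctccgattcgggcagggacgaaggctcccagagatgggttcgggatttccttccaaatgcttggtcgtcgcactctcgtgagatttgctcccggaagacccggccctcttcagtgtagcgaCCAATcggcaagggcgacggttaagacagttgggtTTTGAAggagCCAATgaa
Mcm5: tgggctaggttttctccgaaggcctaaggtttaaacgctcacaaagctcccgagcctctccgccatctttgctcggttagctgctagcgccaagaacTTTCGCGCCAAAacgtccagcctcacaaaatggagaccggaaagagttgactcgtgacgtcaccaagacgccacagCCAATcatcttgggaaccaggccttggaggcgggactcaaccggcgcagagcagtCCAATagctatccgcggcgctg
Mcm6: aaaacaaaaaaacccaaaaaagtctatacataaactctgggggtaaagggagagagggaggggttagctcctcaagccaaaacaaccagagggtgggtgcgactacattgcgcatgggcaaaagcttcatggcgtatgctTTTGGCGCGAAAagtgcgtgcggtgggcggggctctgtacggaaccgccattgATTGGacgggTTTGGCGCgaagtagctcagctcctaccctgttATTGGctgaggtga
The Mki67 run has 2 TTTGAA matches downstream of 3 CCAAT matches, and Cdk1 has both a TTTCGCGC match and 2 TTTGAA matches. Mcm6 has 3 E2F matches and Mcm5 has 2, and neither has TTTGAA.

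Values are MAS5 signals on a linear scale. Differences are knockout minus wild type after log2(signal + 15.3), a transformation that shrinks the differences of dim probe sets. Each gene is represented by its probe set with the highest mean log2 signal over all 4 arrays, knockout arrays included. Furin itself had signals of 435.1 and 343.9 on wild-type arrays 1 and 2, and 391.4 and 446.9 on knockout arrays 1 and 2. The groups overlapped, and where its probe set lies relative to the deleted part is not given in the sources used here, so this does not check the genotype. The array number separated the arrays more than the genotype did. Of the variance between arrays, 62.6% lay on a principal component that split the numbers. Gapdh control probe sets at the 3′ end over those at the 5′ end, a measure of RNA integrity and labelling, stood at 4.09 and 3.35 on arrays 1 of wild type and knockout and 0.905 and 0.934 on arrays 2. The same measure for the b-Actin control went the other way, with 1.23 and 1.20 on arrays 1 and 1.72 and 1.77 on arrays 2. Bacterial hybridisation controls were 6.25-fold and 6.09-fold brighter on array 2 than on array 1 in wild type and knockout. Differences are therefore also given within the arrays numbered 1 (pair 1) and the arrays numbered 2 (pair 2). All 9 measured T cell markers were above the median of the table, among them Cd3e, Cd4 and Cd28, and so were all 6 measured markers of naive T cells, such as Ccr7 and Il7r. So were 11 of 11 markers of activated T cells, 8 of 10 of B cells, 10 of 15 of myeloid cells and 4 of 6 of plasma cells. For CD8 T and NK cells it was 5 of 7, for thymocytes 3 of 6 and for erythroid cells 2 of 4. Lying above the median therefore does not separate naive T cells from other cells.

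In the limma fit over all probe sets, 0 of the 86 probe sets of the members passed a Benjamini-Hochberg adjusted p of 0.05, as did 0 of 45037 in all, which is 0% called. At an unadjusted p under 0.05 there were 0 of 86 and 753 of 45037 (1.67%). The smallest unadjusted limma p of a member was 0.058, for Birc5. With the array number as a block 0 members passed as well, with 3 of 86 and 2301 of 45037 (5.11%) at an unadjusted p under 0.05. With the block and a trended prior 96 probe sets passed, 0.213% of all, and 0 of them belonged to the members. The differences below are therefore descriptions of 4 arrays. A difference that misses the threshold does not show that the groups were alike, since the 95% intervals of single members were as wide as -2.12 to 2.28 for Ube2c.

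**Figure D1:**
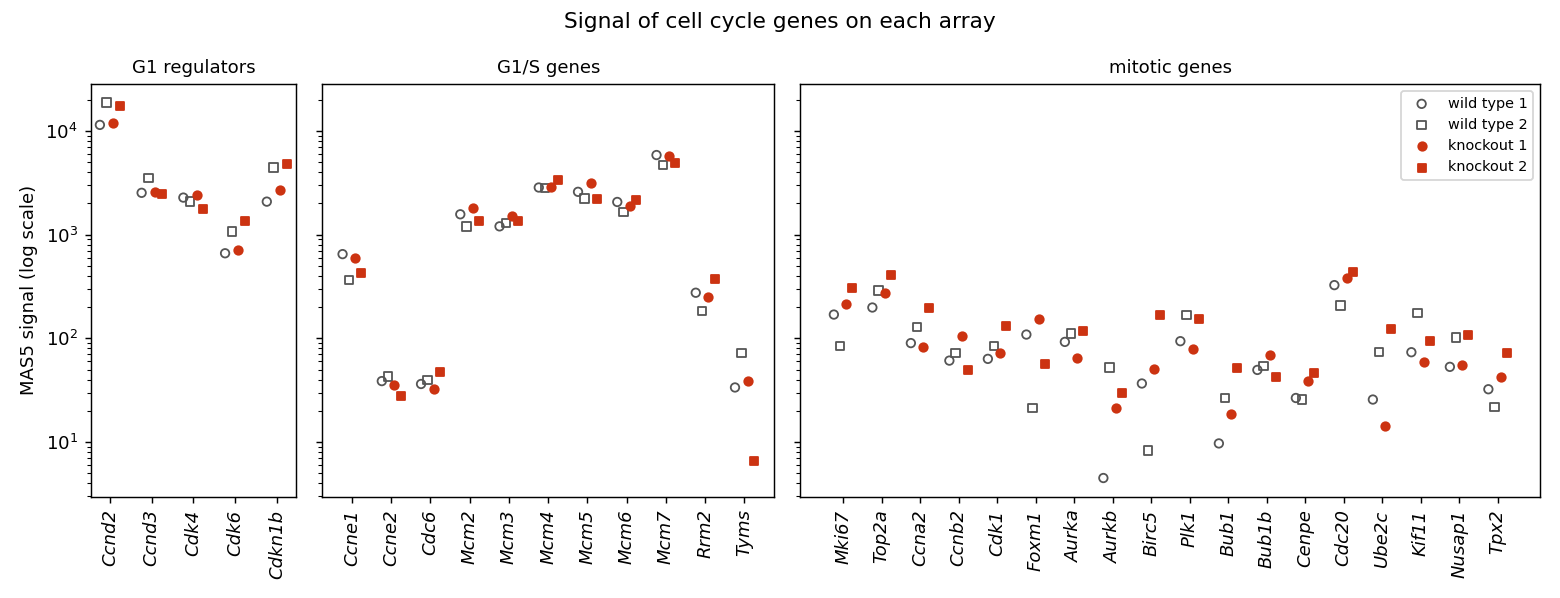
MAS5 signal on a log scale (vertical axis) of the brightest probe set of each of the 34 cell cycle genes (horizontal axis), with 1 point per array. Open symbols are wild type, filled red symbols knockout, circles arrays numbered 1 and squares arrays numbered 2. The mitotic genes lie below 439 on every array, and knockout array 2 has the highest signal for 12 of the 18.

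The 5 regulators of G1 gave clear signals on all arrays. Ccnd2, the D-type cyclin, had 11433 and 18834 in wild type and 11888 and 17403 in knockout, in the order of arrays 1 and 2. Its difference was -0.03 (SE 0.45, pairs 0.06 and -0.11), and the array number moved it more than the genotype. Ccnd3, another D-type cyclin, had 2531 and 3524 against 2568 and 2461, a difference of -0.25 (SE 0.38, pairs 0.02 and -0.52). Its wild-type array 2 stood above the other arrays.

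Cdk4, a partner of the D-type cyclins, had 2276 and 2089 in wild type and 2385 and 1778 in knockout, a difference of -0.08 (SE 0.37). Cdk6, the other partner kinase, had 661.2 and 1070 against 706.8 and 1355, a difference of 0.22 (SE 0.50, pairs 0.09 and 0.34). Cdkn1b, which encodes the inhibitor p27, had 2081 and 4462 against 2676 and 4844, a difference of 0.24 (SE 0.56, pairs 0.36 and 0.12). All 5 genes overlapped between the groups. Cdk6 and Cdkn1b were higher in both pairs, as were 27.4% of all genes, and none was lower in both, as were 24.8%. The median difference of the 5 was -0.03, against 0.0030 for all genes, and within pairs it was 0.07 and -0.11. These counts and medians hold for the brightest probe sets only. Both other probe sets of Cdk4 were lower in both pairs (-0.13 and -0.08, and -0.05 and -0.29), the first without overlap. Over all probe sets Ccnd2 ran from -0.03 to 0.30, Ccnd3 from -0.25 to 0.40 and Cdk6 from 0.04 to 0.93.

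Among the G1/S genes, the 6 subunits of the Mcm helicase, which unwinds DNA at replication forks, had bright signals on the wild-type arrays. Mcm7 had 5855 and 4681 on the wild-type arrays, Mcm4 had 2847 and 2823, Mcm5 2587 and 2220, Mcm6 2065 and 1652, Mcm2 1571 and 1201, and Mcm3 1202 and 1290. These are the brightest probe sets, and some others were much dimmer in wild type. For example, 1 of Mcm3 had 67 and 113.9 and 1 of Mcm7 had 971.6 and 983.9. Signals of different probe sets depend on their oligonucleotides and give no order between genes. The 6 differences between genotypes ran from 0.02 for Mcm7 to 0.19 for Mcm2 and Mcm3, a narrow range beside their SEs of 0.35 to 0.39. Mcm3 had 1514 and 1346 in knockout and Mcm4 had 2858 and 3347, so in both genes the knockout arrays lay above the wild-type arrays; array 1 of Mcm4 was nearly equal in both groups. Such separation upwards was seen in 11.1% of all genes. The other probe sets of Mcm3 and Mcm4 overlapped between the groups, while a further probe set of each of Mcm5, Mcm6 and Mcm7 separated upwards. The narrow range holds for the brightest probe sets only. Over all probe sets Mcm3 ran from -0.36 to 0.19, Mcm5 from -0.05 to 0.72 and Mcm7 from -0.11 to 0.26.

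The other 5 G1/S genes had no shared direction. Rrm2, the small subunit of ribonucleotide reductase, had 275.3 and 184.5 in wild type and 248.3 and 372 in knockout, a difference of 0.41 (SE 0.42, pairs -0.14 and 0.95). Only knockout array 2 stood out. Tyms, which encodes thymidylate synthase, had 33.6 and 72.5 against 39 and 6.6, a difference of -0.93 (SE 0.60, pairs 0.15 and -2.003). All 4 of its probe sets were below the median of the table, and their differences ran from -0.93 to 0.55.

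Ccne1, encoding cyclin E1, had 648.8 and 364.2 against 589.5 and 429.4, a difference of 0.05 (SE 0.45), with the arrays ordered by number rather than genotype. Ccne2, encoding cyclin E2, had 38.7 and 42.7 against 35.7 and 27.9, a difference of -0.25 (SE 0.35, pairs -0.08 and -0.43). It was the only member whose knockout arrays both lay below the wild-type arrays, as in 9.5% of all genes, and its signals were below the median of the table. Cdc6, which loads the helicase, had 36.3 and 39.7 against 32.5 and 47.6, and its groups overlapped. In both pairs 3 of the 11 were higher and 1 was lower, against 27.4% and 24.8% of all genes. The median difference was 0.13, with -0.03 in pair 1 and 0.18 in pair 2.

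The mitotic genes were dim, and more of them were higher in the knockout-labelled arrays. In both pairs 10 of the 18 were higher and 2 lower, against 27.4% and 24.8% of all genes. In 5 of them both knockout arrays lay above both wild-type arrays, against 11.1% of all genes, and in 0 both lay below. Tpx2 is among the 10 and the 5 through a probe set that ranked brightest only because of its knockout signals. The median difference was 0.29, with 0.29 in pair 1 and 0.55 in pair 2, where the medians over all genes were 0.0030, 0.04 and -0.02. In all 10 genes that were higher in both pairs the difference was larger in pair 2. Without wild-type array 1 the median was 0.10 and without knockout array 1 it was 0.65. Of the 38 mitotic probe sets only 13 had a mean above the median of the table, and 7 of the 18 genes had none.

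Mki67, whose product Ki-67 marks cycling cells, had 169.6 and 84 on wild-type arrays 1 and 2 and 212.7 and 308.2 on knockout arrays 1 and 2. The lowest array was wild-type array 2 and the highest knockout array 2, and the groups did not overlap. Its difference was 1.003 (SE 0.47, 95% interval -0.21 to 2.21), with 0.30 in pair 1 and 1.70 in pair 2. Without wild-type array 2 the difference was 0.55. Birc5, which encodes survivin of the chromosomal passenger complex, had 36.7 and 8.3 against 50.9 and 167.8. Its difference was 1.65 (SE 0.68, 95% interval -0.08 to 3.39), with 0.35 in pair 1 and 2.96 in pair 2. Wild-type array 2, at 8.3, lay under the added 15.3, and without knockout array 2 the difference was 0.92.

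Cdc20, an activator of the anaphase-promoting complex, had 326 and 207.9 in wild type and 381.9 and 438.8 in knockout. The groups did not overlap, and the difference was 0.62 (SE 0.40, pairs 0.22 and 1.02), or 0.32 without wild-type array 2. A second Cdc20 probe set, with a plain _at name, gave 206.4 and 314 against 243.1 and 379, which overlap, and a difference of 0.24 with pairs of 0.22 and 0.26. Tpx2, a spindle assembly factor, had 32.3 and 21.8 against 42.8 and 71.8, a difference of 0.76 (SE 0.41, pairs 0.29 and 1.23). This probe set ranked brightest only through the knockout arrays. In wild type another Tpx2 probe set was brighter, with 49.7 and 66.5 against 2 and 67.6 in knockout, a difference of -0.95 with overlap. The 4 probe sets of Tpx2 disagreed and ran from -0.95 to 0.76.

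Cenpe, a kinetochore motor, had 26.6 and 25.7 in wild type and 38.6 and 46.7 in knockout, a difference of 0.48 (SE 0.35, pairs 0.36 and 0.60). Its groups did not overlap, but its second probe set gave -0.24. Top2a, the topoisomerase that untangles chromosomes, had 198.3 and 290.6 against 275.3 and 411.3, a difference of 0.46 (SE 0.42). Its pairs were close, at 0.44 and 0.48, although the groups overlapped and array 2 was brighter in both genotypes. Its other probe sets were at 0.08 and -0.48.

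Foxm1, a transcription factor for G2 and mitotic genes, had 108.8 and 21.4 against 153.2 and 56.8, a difference of 0.71 (SE 0.76, pairs 0.44 and 0.97). The array number moved it more than the genotype, and without wild-type array 2 its difference was -0.17. Its next probe set, of the _x_at kind (oligonucleotides that may match other transcripts), with 33.4 and 50.9 against 66.4 and 80.4, did not overlap and differed by 0.64 (pairs 0.75 and 0.53). Cdk1, the mitotic kinase, had 63.4 and 84.7 against 72.7 and 130.7, a difference of 0.35 (SE 0.43, pairs 0.16 and 0.55). Bub1, a spindle checkpoint kinase, was at 0.56 (pairs 0.44 and 0.68), while its other probe set was at -0.40 with pairs of opposite sign. Nusap1, a spindle protein, was at 0.06 (pairs 0.04 and 0.07), and its other probe set was at -0.98 and lower in both pairs.

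The remaining mitotic genes did not share this direction in their brightest probe sets. Kif11, a spindle motor, had 73.5 and 175.5 in wild type and 59.2 and 94.7 in knockout, a difference of -0.52 (SE 0.52, pairs -0.25 and -0.79), while another of its 3 probe sets was at 0.57. Plk1, a mitotic kinase, had 93.9 and 167.5 against 78.1 and 153.9, a difference of -0.17 (SE 0.50, pairs -0.23 and -0.11). These were the 2 genes that were lower in both pairs.

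In the other 6 genes the pairs had opposite signs. Ccna2, encoding cyclin A2, was at -0.10 and 0.55, Aurka, a spindle kinase, at -0.44 and 0.08, and Ube2c, a ubiquitin-conjugating enzyme of the anaphase-promoting complex, at -0.47 and 0.64. Ccnb2, encoding cyclin B2, was at 0.66 and -0.43, Aurkb, the kinase of the passenger complex, at 0.88 and -0.58, and Bub1b, a checkpoint protein, at 0.37 and -0.26. In these probe sets the 4 arrays thus give no common direction. Another probe set of Ccna2 (pairs 0.06 and 0.60), Aurka (0.21 and 0.41) and Bub1b (0.28 and 0.34) was higher in both pairs. Those of Aurka and Bub1b were below the median of the table. A further probe set of Bub1b (-0.44 and 1.07) and the second of Aurkb (-1.06 and 1.40) again had opposite signs.

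**Figure D2:**
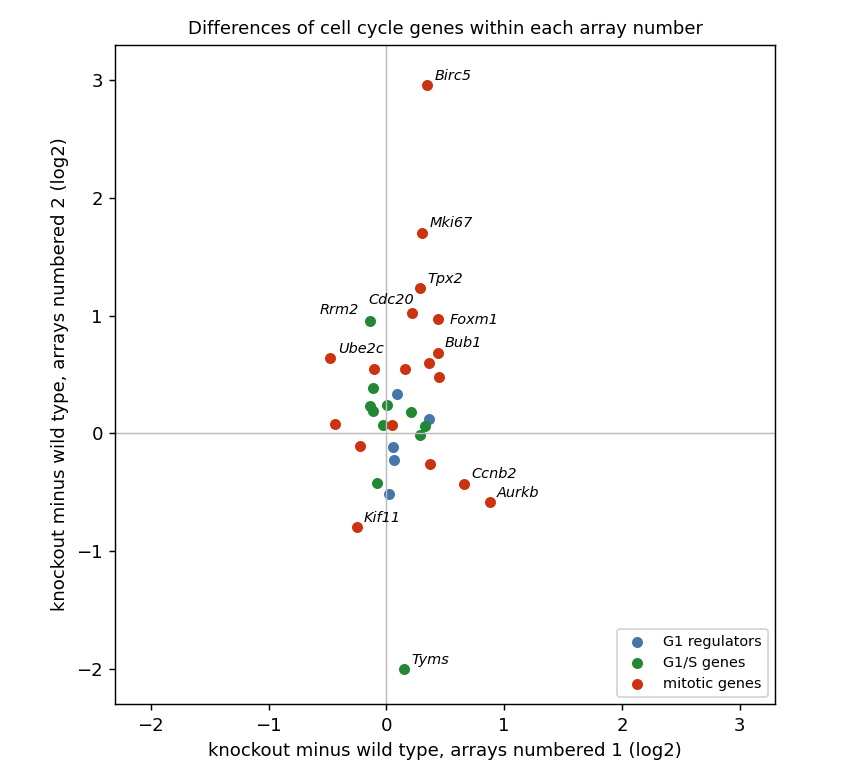
Knockout minus wild type on the log2(signal + 15.3) scale within the arrays numbered 1 (horizontal axis) and within those numbered 2 (vertical axis), with 1 point per gene, coloured by group. Most spread is vertical, from -2.003 for Tyms to 2.96 for Birc5, while no gene exceeds 0.88 on the horizontal axis.

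Set against the G1/S genes, the mitotic genes had the higher median difference, by 0.16 over all arrays, by 0.32 in pair 1 and by 0.37 in pair 2. The contrast was -0.08 without wild-type array 1, -0.0049 without knockout array 2 and 0.66 without knockout array 1, so its direction rested on single arrays. With the mean of all probe sets of each gene it was 0.08. The pairs agreed little gene by gene. Across the 18 mitotic genes, which share libraries and are not independent replicates, the correlation between the pair 1 and pair 2 differences was 0.09, and across all 18193 genes it was 0.07.

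The summed signal of the 18 mitotic genes was 1515 and 1709 on wild-type arrays 1 and 2 and 1795 and 2599 on knockout arrays 1 and 2. The ratio of knockout to wild type was 1.18 in pair 1 and 1.52 in pair 2. The sum for the G1/S genes was 17160 and 14570 against 17948 and 16197, with ratios of 1.05 and 1.11. That for the G1 regulators was 18982 and 29979 against 20224 and 27841, with ratios of 1.07 and 0.929. Only in the mitotic sum, among these 3, did both knockout arrays lie above both wild-type arrays. The margin was narrow, from 1709 on wild-type array 2 to 1795 on knockout array 1. Between these arrays Cdc20 alone went from 207.9 to 381.9 and Mki67 alone from 84 to 212.7, each a larger step than that of the sum. The separation of the sum therefore rested on single genes.

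Probe sets of 1 gene often disagreed. Of the 26 members with several probe sets, 15 had differences of both signs between genotypes, namely 2 of 5 G1 regulators, 5 of 9 G1/S genes and 8 of 12 mitotic genes. The array number did as much. In 16 of the 26 members some probe sets were brighter and others dimmer on wild-type array 2 than on array 1. A probe set of Mcm2 was at 0.28 of its array 1 level on array 2 in wild type and 0.30 in knockout, while the brighter probe set of Mcm2 was at 0.77 and 0.75. Across all 86 probe sets, 38 were higher and 9 lower in both pairs, where 25.7% and 26.8% of all probe sets were. In 9 members the brightest probe set has a name ending in _x_at or _s_at, which Affymetrix uses where oligonucleotides may match other transcripts. These are Cdk4, Ccne1, Mcm3, Mcm5, Mcm7, Rrm2, Aurkb, Cdc20 and Tpx2.

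**Figure D3:**
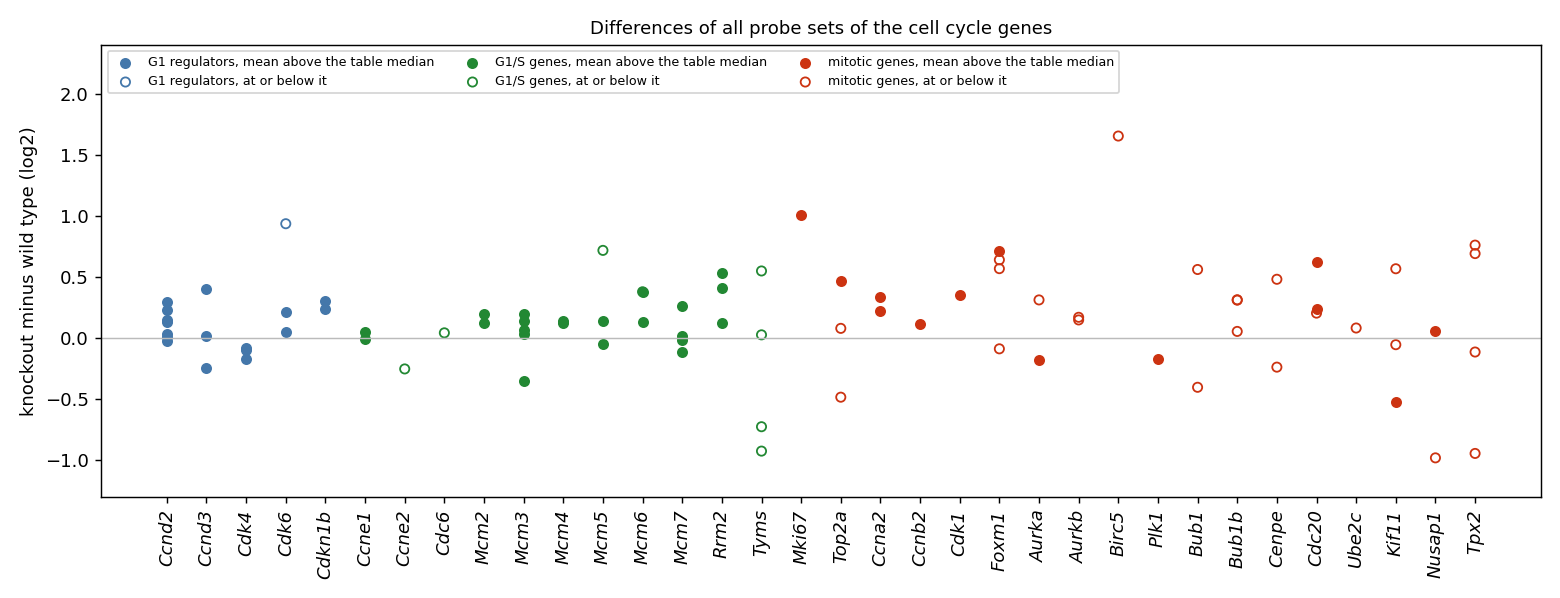
Knockout minus wild type (log2, vertical axis) for each of the 86 probe sets, by gene (horizontal axis). Filled points have a mean above the median of the table and open points do not; the mitotic points are mostly open and spread from -0.98 for Nusap1 to 1.65 for Birc5.

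A wider set of cell cycle genes was then examined. From the S and G2/M lists in common use for scoring cell cycle phase, without the members, 33 and 39 genes were measured. Of the other G2/M genes, 13 were higher and 9 lower in both pairs (27.4% and 24.8% of all genes), and their median difference was 0.04, with 0.08 and 0.02 in the pairs. Cks2, a Cdk-binding protein, was at 0.51 (SE 0.41, pairs 0.14 and 0.89), Ncapd2, a condensin subunit, at 0.48 (SE 0.37, pairs 0.36 and 0.60) and Kif20b, a kinesin, at -0.43 (SE 0.39, pairs -0.05 and -0.82). In this list too 0 genes passed limma, with 0 at an unadjusted p under 0.05.

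Of the other S genes, 9 were higher and 6 lower in both pairs (27.4% and 24.8% of all genes), and the median difference was 0.04, with -0.01 and 0.07 in the pairs. Dtl, the substrate adaptor of a ubiquitin ligase that degrades replication factors, stood apart. It had 57.4 and 22.6 in wild type and 476.3 and 296.5 in knockout, a difference of 2.90 (SE 0.50, pairs 2.76 and 3.04). Only 1 of its other 5 probe sets showed a similar shift, with 12.4 and 39.6 against 262.4 and 142, and the other 4 stayed at 44.9 or less on every array. It did not pass limma without a block (adjusted p = 1). Among the members and the other cell cycle lists it alone passed with a block and a trended prior (adjusted p = 0.00267). Hells, a chromatin remodeller, was at 0.65 (SE 0.56, pairs 0.30 and 0.996) and Dscc1, of a clamp-loading complex, at -0.67 (SE 0.35, pairs -0.76 and -0.59).

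Among 24 other regulators of cell cycle entry, 4 were higher and 9 lower in both pairs, against 27.4% and 24.8% of all genes, with a median of -0.01. In 2 both knockout arrays lay above and in 4 below both wild-type arrays, against 11.1% and 9.5% of all genes. Btg2, an antiproliferative factor, had 4919 and 5503 in wild type and 7216 and 7232 in knockout, a difference of 0.47 (SE 0.35, pairs 0.55 and 0.39). Foxo1, a transcription factor of quiescent T cells, had 8114 and 6592 against 5955 and 5141, a difference of -0.40 (SE 0.36, pairs -0.45 and -0.36). E2f4, a repressor E2F of the DREAM complex, had 226.6 and 225.2 against 122.2 and 186.7, a difference of -0.53 (SE 0.39, pairs -0.81 and -0.25). These 3 are among the genes without overlap and were named for the size of their differences. None passed limma.

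**Figure D4:**
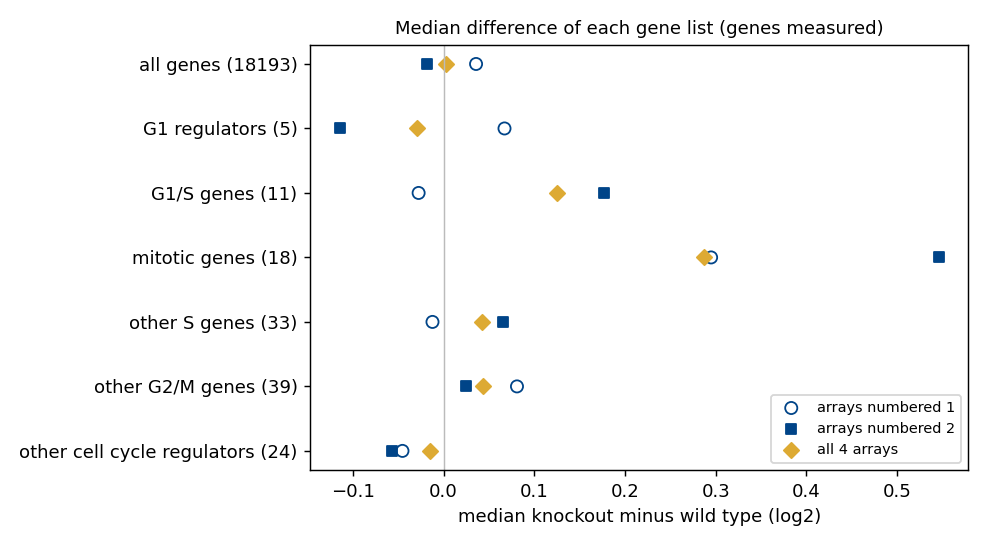
Median knockout minus wild type (log2, horizontal axis) of each gene list (vertical axis, with the number of genes measured), within arrays numbered 1 (open circles), within arrays numbered 2 (filled squares) and over all arrays (diamonds). The 18 mitotic members stand at 0.29 and 0.55 in the pairs, and the 39 other G2/M genes at 0.08 and 0.02.

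The summed markers of B cells, myeloid cells and plasma cells were also higher in the knockout-labelled arrays in both pairs, with the larger ratios in pair 2. Over all genes 27.4% were higher and 24.8% lower in both pairs. Of 10 measured B cell markers 8 were higher and 0 lower in both pairs. Their summed signal was 1068 and 4498 on wild-type arrays 1 and 2 and 1573 and 15936 on knockout arrays, a ratio of 1.47 in pair 1 and 3.54 in pair 2. Of 15 myeloid markers 13 were higher and 0 lower in both pairs, with sums of 1375 and 4186 against 2193 and 15201 and ratios of 1.59 and 3.63. S100a8, a neutrophil protein, had 32 and 292.2 against 118.7 and 3468.

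Of 6 plasma cell markers 3 were higher and 0 lower in both pairs (27.4% and 24.8% of all genes). Their sums were 5967 and 3601 against 6096 and 6364, with ratios of 1.02 and 1.77. Jchain, the joining chain of antibodies, had 1948 and 213.7 against 1317 and 2570, with pair differences of -0.56 and 3.50. Of 11 activated T cell markers 7 were higher and 2 lower in both pairs, with sums of 10511 and 6895 against 13669 and 9659 and ratios of 1.30 and 1.40. In 5 of these, Ccl5, Cxcr3, S100a4, Il12rb1 and Gzma, both knockout arrays lay above both wild-type arrays, as in 11.1% of all genes. The 2 lower markers were Cd44, the gene of a surface marker used in the sort, and Il2ra. Cd44 had 1126 and 1099 against 863.2 and 965.2, and Il2ra 544.9 and 598.5 against 361.9 and 491.4. The list was chosen with earlier results of these data known, so its counts are no independent evidence.

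In the remaining lists the summed signals were not higher in both pairs, although single markers were. Their counts stand beside 27.4% higher and 24.8% lower in both pairs over all genes. The 9 T cell markers (0 higher and 2 lower in both pairs) had sums of 61978 and 138522 against 62854 and 131921, the 6 naive markers (0 and 3) 52116 and 82194 against 47339 and 74581, and the 7 markers of CD8 T and NK cells (3 and 2) 4852 and 6876 against 3639 and 4068. In the last list Nkg7, a granule protein of cytotoxic cells, was at 1.22, and Ctsw, a protease of cytotoxic cells with a large part of the sum, was at -1.60. The 6 thymocyte markers (3 higher and 1 lower in both pairs) had sums of 6904 and 2197 against 6263 and 2191, with Rag1 under 15.3 on every array, and the 4 erythroid markers (0 and 1) 2239 and 1858 against 2027 and 1892. No marker was listed at 0 on an array. In limma with the block and a trended prior, 3 activated T cell, 3 myeloid and 2 B cell markers passed an adjusted p of 0.05, and so did Ctsw. In the T cell, naive T cell, plasma cell, thymocyte and erythroid lists 0 passed. Over all genes 53 of 18193 passed. The part of B, myeloid, plasma or activated T cells in the mitotic signal was not tested.

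**Figure D5:**
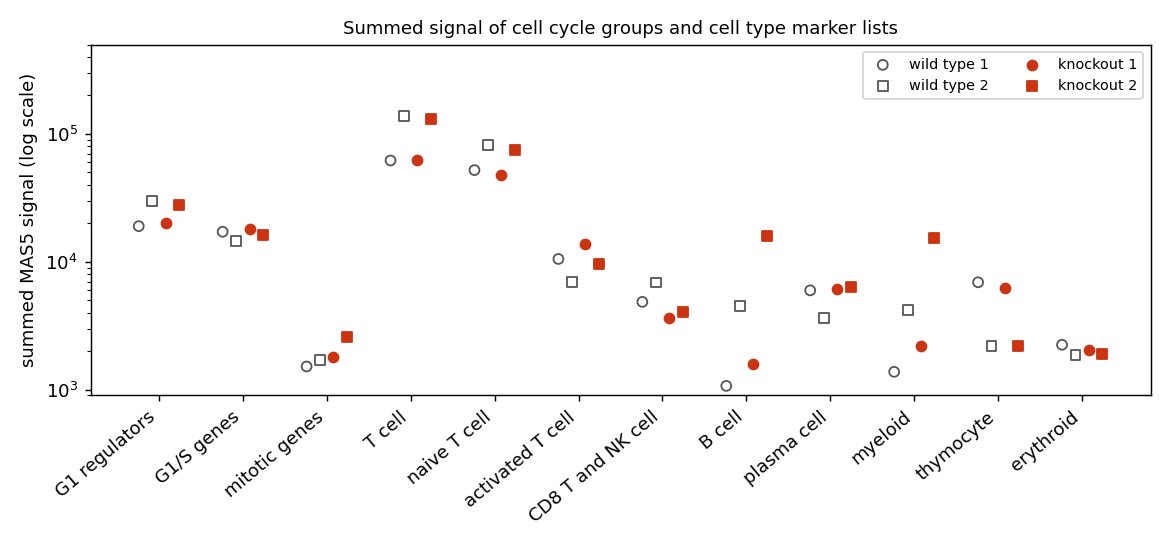
Summed MAS5 signal on a log scale (vertical axis) of the cell cycle groups and the cell type marker lists (horizontal axis), with 1 point per array and symbols as in the plot of signals by gene. The B cell and myeloid sums are highest on knockout array 2, at 15936 and 15201, and so is the mitotic sum, at 2599.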

How the data were processed

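The values are MAS5 signal intensities that the authors deposited on a linear scale, 1 per probe set. The submitters' processing notes name MAS5 without version or settings. The values show that each array was scaled to a trimmed mean of 500.003 (2% trimmed at each end), so changes shared by all genes would be removed. Detection calls were not used here, and background levels are unknown. Of 45101 probe sets 64 controls were left out, and 34945 of the other 45037 carry 1 gene symbol, 34741 of which matched RefSeq (GRCm38.p6) by Entrez identifier with 0 symbols altered.

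Signals were transformed as log2(signal + 15.3), the 25% quantile of all values. All probe sets were fitted without a filter by lmFit and eBayes of limma 3.58.1 under R 4.3.3 (two-sided, Benjamini-Hochberg over all 45037, threshold 0.05). On simulated data the fitted differences matched those put in, but the fits without a block and with the block alone called none of the altered genes, so their counts of 0 do not show that nothing differed. With the block and trended prior altered genes were called, along with some false ones. Lists are described by counts and medians. The genes named are all 35 symbols, and of each other list the 3 with the largest difference of 1 sign in both pairs above the median of the table (a signal of about 60.0). Single further probe sets and the markers S100a8, Jchain, Nkg7, Ctsw, Cd44, Il2ra, Ccl5, Cxcr3, S100a4, Il12rb1 and Gzma were named after their values were seen. The members and lists were chosen with earlier results of these data known. Alternatives covered the pseudocount, filter, normalization, prior, array number, single arrays and choice of probe set.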

Additional observations from a re-analysis of the deposited data

How the results depend on the processing

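The count of members past an adjusted p of 0.05 was 0 under every alternative run. Over all probe sets it was 6 with the replicate block and a filter at the median (added after seeing the data) and 96 with the replicate block and a trended prior, and 0 otherwise, the replicate block alone included. Same-numbered arrays deviated together from their group means (correlation 0.55 across probe sets, which are not independent), but the labels name no shared animal or day. The contrast of mitotic against G1/S genes was 0.20 with the G1 regulators joined to the latter, 0.083 and 0.32 with a pseudocount at the median or of 1, 0.086 with the median filter, 0.23 with quantile normalization and 0.077 with probe sets averaged per gene. That mean moved the G1 regulators to 0.12, the other S genes to -0.024 and the other regulators to -0.0023, and probe sets without _x_at or _s_at names (added) moved the other G2/M genes to -0.020. The other regulators were at -0.0023 with the median filter, 0.091 with the 75th percentile filter and -0.0060 with quantile normalization. The 75th percentile filter left 5 of 12 members higher in both pairs and no mitotic gene, so it gave no mitotic median. With 1 array left out, pairs are lost, so no count by pair was made. The medians then ranged from 0.099 to 0.65 (mitotic), -0.014 to 0.18 (G1/S), -0.31 to 0.33 (G1 regulators), 0.011 to 0.11 (other S), -0.044 to 0.22 (other G2/M) and -0.28 to 0.17 (other regulators), and the contrast from -0.082 to 0.66. The sign of 11 of 34 members never turned. It turned for Aurkb at a pseudocount at the median (-0.00028), Ube2c at a pseudocount of 1 (-0.040), Mcm7 with quantile normalization (-0.0020), for Ccnd2 (0.12), Ccnd3 (0.055), Aurka (0.066), Nusap1 (-0.46), Hells (-0.087) and Kif20b (0.095) with the mean of probe sets, and for Ccne1 (-0.0066), Mcm5 (-0.046), Mcm7 (-0.11) and Tpx2 (-0.95) without _x_at and _s_at. With 1 array left out Ccnd2 ranged from -0.39 to 0.33, Cdk4 from -0.29 to 0.13, Cdk6 from -0.25 to 0.68, Cdkn1b from -0.31 to 0.79, Ccne1 from -0.36 to 0.45, Cdc6 from -0.16 to 0.24, Mcm2 from -0.014 to 0.40, Mcm5 from -0.12 to 0.40, Mcm6 from -0.026 to 0.29, Mcm7 from -0.14 to 0.18, Ccna2 from -0.33 to 0.77, Ccnb2 from -0.33 to 0.56, Cdk1 from -0.012 to 0.72, Foxm1 from -0.17 to 1.59, Aurka from -0.56 to 0.20, Aurkb from -0.74 to 1.04, Plk1 from -0.60 to 0.26, Bub1b from -0.22 to 0.32, Ube2c from -1.04 to 1.20, Kif11 from -1.08 to 0.028 and Nusap1 from -0.34 to 0.46. The cause of these turns was not tested.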
